A study of Mus musculus with 21 samples.

Results

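Axon guidance ligands and their receptors were described here across endothelial and cardiomyocyte RNA, GATA4 occupancy and open chromatin of the embryonic mouse ventricle. Members were taken by a rule on gene symbols, chosen with earlier results of these data known. It covered semaphorins (Sema), plexins (Plxn), neuropilins (Nrp), Slits, Robos, netrins (Ntn), Unc5, Eph receptors (Epha, Ephb) and ephrins (Efna, Efnb), without Ephb4 and Efnb2. The rule took 69 of the 24421 genes in the count table, in 11 families: 20 semaphorins, 10 plexins, 2 neuropilins, 3 Slits, 4 Robos, 4 netrins, 6 Unc5 symbols, 9 EphA and 4 EphB receptors, 5 ephrin-A and 2 ephrin-B ligands. Of these, 3 entered by spelling only, which leaves 66: Unc50 is a Golgi protein and no netrin receptor, Unc5cl lacks the netrin-binding part of the family, and Plxna4os1 is an antisense transcript at Plxna4.

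Guidance cues steer growing axons and, by the same receptors, migrating and sprouting endothelial cells. Class 3 semaphorins are secreted and mostly act through neuropilins paired with plexins, whereas semaphorins of the other classes are held at the membrane and bind plexins directly. Slits bind Robos, netrins bind Dcc, Neo1 and Unc5 receptors, and ephrins signal between touching cells through Eph receptors. In the heart these families are known for outflow tract and septum formation, trabeculation and coronary vessel growth, and neuropilins also serve as co-receptors for VEGF.

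All samples came from E12.5 mouse heart ventricles, labelled ventricular apex except for the cardiomyocyte samples. RNA was polyadenylated RNA of 2 endothelial libraries (EC), each from 60000 GFP+ cells sorted by a Tie2-Cre-activated Rosa26fsTRAP reporter, and of 3 cardiomyocyte libraries (CM). The sources used here do not say how cardiomyocytes were purified, nor whether EC and CM libraries were made and sequenced together. Lineage and preparation therefore cannot be told apart in the RNA comparison. GATA4, a zinc finger transcription factor of the heart, was pulled down on streptavidin from 15 to 20 pooled ventricles per library, after biotinylation activated by Tie2-Cre (endothelial and endocardial lineages, and blood cells) or by Tnnt2-Cre (cardiomyocytes), with 3 libraries each. Open chromatin was measured by omni-ATAC in 2 libraries of 40000 sorted Tie2-Cre cells, labelled replicates 2 and 3, and in 3 Gata4 het and 3 Gata4 ko libraries of 20000 cells, labelled replicates 2 to 4 in both. Those 6 carried the Rosa26mTmG reporter and the inducible, endothelial Cdh5(Pac)-CreERT2, and both genotypes had received 1 mg of tamoxifen through the dam at E9.5. The labels name the genotypes only as het and ko, and loss of Gata4 was not checked here.

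The RNA libraries held 27660790 and 21682362 counts in EC and 42948614 to 48393473 in CM. All 19 endothelial markers were higher in EC and all 20 cardiomyocyte markers lower, by edgeR's quasi-likelihood test. The CM level of the endothelial markers was 15.9% of the EC level at the median (range 5.58% to 55.6%), whereas the EC level of cardiomyocyte markers was 0.989% of the CM level (range 0.106% to 6.3%). Summed blood markers stood at 31.01 to 32.97 CPM (counts scaled to a common library total) in EC and 1278 to 3131 in CM, mainly Hbb-y, an embryonic globin. Of 14 tested blood and macrophage markers, however, 10 were higher in EC and 4 lower, Hbb-y among them, with a median log2 fold change of 4.23. The leukocyte gene Ptprc, for example, stood at 1.45 and 1.27 CPM in EC and at most 0.146 in CM. The globin genes Hba-a1, Hbb-bt and Hbb-bs were at 0 in both lineages. Summed neuronal and Schwann cell markers stood at 143 and 153 CPM in EC and 55.0 to 58.2 in CM, and 7 of 13 tested were higher in EC and 4 lower. Epicardial, fibroblast and mural markers were higher in EC in 7 of 18 cases and lower in 10, but their summed level was higher in EC, at 2040 and 1971 CPM beside 1132 to 1203 in CM. Postn made up much of that sum, at 940.8 and 890.4 CPM in EC and 156.0 to 176.7 in CM, and Pdgfra (log2 fold change 2.41) and Pdgfrb (2.90) were higher as well. The part of other cells in the results below was not tested, and in bulk samples fewer cells of a type and less RNA per cell cannot be told apart.

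Most guidance genes differed between the lineages, and most of those were higher in EC. Of the 69 members, 60 passed the low-count filter; 38 were higher in EC, 15 were lower and 7 were not called (edgeR, Benjamini-Hochberg adjusted p below 0.05 over all 14851 genes tested). The share called was 88.3% of tested members beside 77.8% of all genes tested. Higher calls made up 63.3% of tested members (37.5% of all genes) and lower calls 25% (40.2% of all genes). At 2-fold or more, 28 members were higher and 11 lower, where the same calls covered 22.2% and 22.6% of all genes tested. The median log2 fold change was 0.79 over tested members and -0.06 over all genes. Without the 3 symbols in by spelling, 57 members were tested. Of these, 36 were higher, 14 lower and 7 not called, with a median of 0.82. EC and CM libraries did not overlap at 56 of the 60 tested members, a separation found at 85.3% of all genes. The 9 members not tested were Sema4a, Sema4f, Slit1, Robo3, Ntn5, Epha6, Epha8, Epha10 and Efna3.

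**Figure D1:**
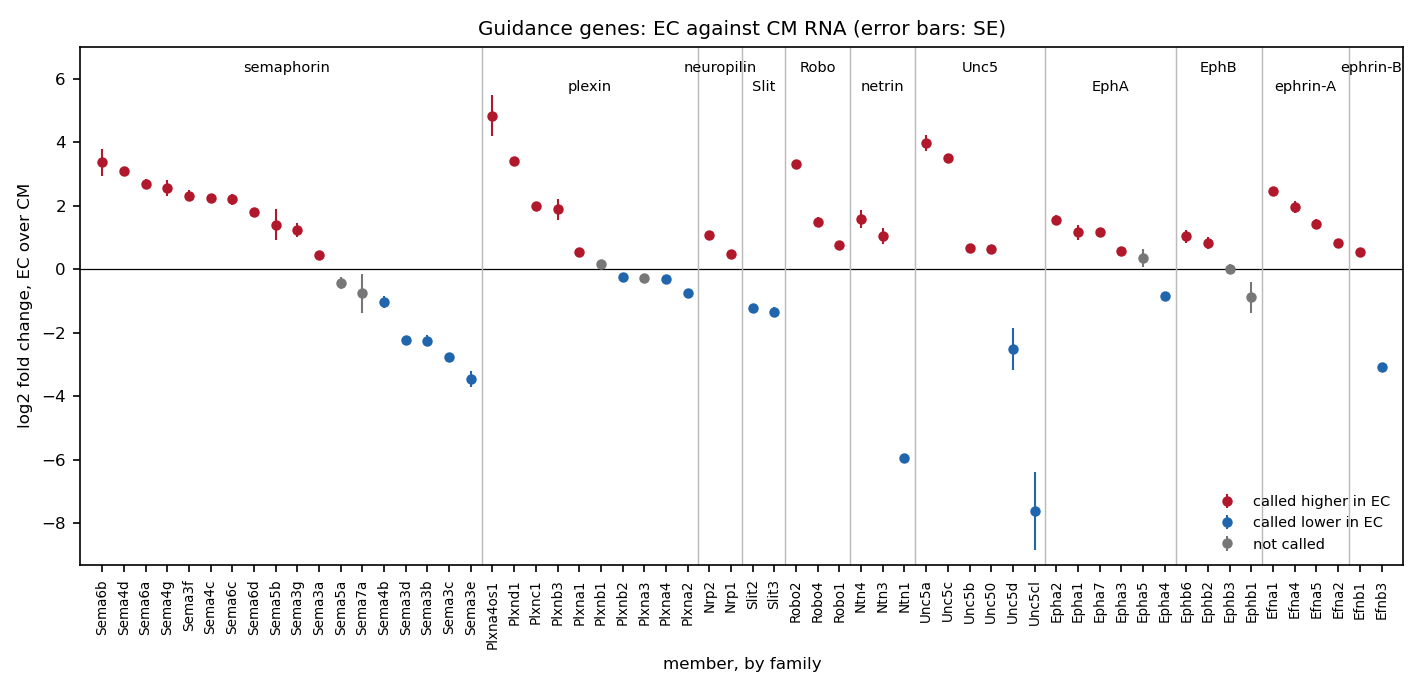
Log2 fold change of EC over CM RNA for the 60 tested members, grouped by family along the horizontal axis, with SE bars and colours for the edgeR call. Semaphorins and Unc5 genes spread to both sides of 0, both Slits lie below it and all 4 tested ephrin-A genes above it. The value of Unc5cl, at 0 in EC, depends on the fit.

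Membrane-bound ligands were mostly higher in EC, and secreted ligands were split. Of 12 tested secreted ligands, 5 were higher in EC and 7 lower, with a median log2 fold change of -1.27. Of 17 tested membrane-bound ligands, 13 were higher and 2 lower (Sema4b and Efnb3), with a median of 1.80. Of 28 tested receptors, 18 were higher and 5 lower (Plxna2, Plxna4, Plxnb2, Unc5d and Epha4), with a median of 0.71. Members named with values below were taken by a rule on family, level and size of change; Sema3b, Sema3c, Sema3d, Sema3f, Sema4b, Sema4c, Sema4d, Sema5b, Sema6a, Robo4, Unc5b, Unc5c, Unc5cl, Unc5d, Plxnc1, Plxna4 and Ephb1 were added after their values were seen.

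Among secreted ligands, Ntn1, the netrin best known for midline axon attraction, showed the widest gap. It stood at 2.55 and 1.99 CPM in the EC libraries and at 142.4, 144.4 and 138.1 CPM in CM. Both EC libraries were far below every CM library, with a log2 fold change of -5.94 (SE 0.12, edgeR adjusted p = 3.43e-11). Ntn4, a basement membrane netrin that binds laminin, ran the other way, at 6.74 and 7.88 CPM in EC and 1.79, 1.93 and 3.61 CM. The groups did not overlap, although 1 CM library lay well above the others (log2 fold change 1.58, SE 0.28, edgeR adjusted p = 0.00041). Per kilobase of exon, Ntn4 was the leading netrin in EC (3.09 ± 0.339 CPM per kb, SD, n = 2) and Ntn1 in CM (24.4 ± 0.712, SD, n = 3).

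Slits, the repulsive ligands of Robos, were lower in EC. Slit2 stood at 87.1 and 86.6 CPM in EC and at 207.0, 221.2 and 175.1 CPM in CM. All CM libraries lay above both EC libraries (log2 fold change -1.21, SE 0.10, edgeR adjusted p = 8.77e-07). Slit3, much less abundant, stood at 4.22 and 4.26 CPM in EC and at 11.2, 9.93 and 10.95 CPM in CM, again without overlap (log2 fold change -1.33, SE 0.15). Slit1 was not tested, with at most 0.272 CPM in any library.

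The Robo receptors showed the opposite order. Robo2 stood at 77.0 and 75.4 CPM in EC and at 7.02, 7.37 and 8.37 CPM in CM, with a log2 fold change of 3.33 (SE 0.10, edgeR adjusted p = 3.12e-10). Robo1, which had the highest Robo level per length in both lineages, stood at 109.5 and 110.0 CPM in EC and at 56.5, 64.9 and 73.5 CPM in CM (log2 fold change 0.76, SE 0.10). Robo4, the Robo known from endothelium, was higher by 1.5 (SE 0.14) on the log2 scale. In all 3 the EC libraries stood above the CM libraries, so that the tested Slit ligands and Robo receptors were called in opposite directions.

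Unc5 receptors, which bind netrins and mediate repulsion, were mostly higher in EC. Unc5c stood at 83.2 and 95.9 CPM in EC and at 8.10, 7.15 and 8.10 CPM in CM (log2 fold change 3.52, SE 0.10, edgeR adjusted p = 2.57e-10). Unc5a stood at 10.1 and 8.51 CPM in EC and at 0.708, 0.400 and 0.651 CPM in CM, a log2 fold change of 3.98 (SE 0.25, edgeR adjusted p = 9.34e-08). In both genes every EC library exceeded every CM library by a wide margin. Unc5b, the family member known from vessel tips, was higher by 0.66 (SE 0.08). Unc5d ran against these at a trace level, at 0.106 and 0.0453 CPM in EC and 0.424 to 0.520 CPM in CM (log2 fold change -2.51, SE 0.66).

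The symbols in by spelling did not share one direction. Unc50 was called higher in EC (log2 fold change 0.64, SE 0.11) and had the highest level per length of the 6 Unc5 symbols in both lineages. In EC its 20.3 ± 2.68 CPM per kb (SD, n = 2) did not differ beyond the spread from the 18.6 ± 1.35 of Unc5b. Unc5cl had no count in either EC library and 0.516 to 0.777 CPM in CM, so it was at least 10.7-fold higher in CM, taking 3 counts over the EC libraries as the floor. Its rank below the median of its family and of all members is the same at that bound. Plxna4os1 stood at 1.21 and 1.54 CPM in EC and at 0.0416, 0.0941 and 0 CPM in CM (log2 fold change 4.84, SE 0.64, edgeR adjusted p = 4.26e-05).

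Class 3 semaphorins, the secreted group, were mixed: 3 of 7 were higher in EC and 4 lower, with a median log2 fold change of -2.22. Sema3e, a ligand that binds Plxnd1 without a neuropilin, stood at 0.957 and 0.543 CPM in EC and at 7.47, 9.20 and 8.82 CPM in CM. Its groups lay apart, with a log2 fold change of -3.46 (SE 0.26, edgeR adjusted p = 3.77e-07). Sema3c, known for outflow tract septation, stood at 6.49 and 8.01 CPM in EC and at 50.3, 48.6 and 48.5 CPM in CM (log2 fold change -2.77, SE 0.11). Sema3b (-2.25, SE 0.17) and Sema3d (-2.22, SE 0.11) were lower by similar log2 fold changes. Sema3a, the classic collapsing factor of axon growth cones, stood at 128.7 and 137.5 CPM in EC and at 108.8, 100.7 and 82.0 CPM in CM. It was higher in EC by only 0.45 on the log2 scale (SE 0.11, edgeR adjusted p = 0.0028) and had a mean level per length in CM of 13.2 ± 1.95 CPM per kb (SD, n = 3), beside 11.7 ± 0.219 for Sema6d, a gap within the spread of Sema3a. Sema3f was higher in EC by 2.32 (SE 0.18).

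Membrane-bound semaphorins were mostly higher in EC. All 4 Sema6 genes and 3 of 4 tested Sema4 genes were called higher, with median log2 fold changes of 2.45 and 2.42. Sema6d, a ligand known from trabeculation of the ventricle, had the highest semaphorin level per length in EC. It stood at 297.9 and 295.4 CPM in EC and at 83.0, 85.6 and 87.2 CPM in CM, with groups far apart (log2 fold change 1.80, SE 0.07, edgeR adjusted p = 1.49e-09). Sema6b, at 4.64 and 5.12 CPM in EC and 0.187, 0.400 and 0.830 CPM in CM, had the greatest fold change among semaphorins higher in EC (3.37, SE 0.42). Sema4d, a ligand of Plxnb1, was higher by 3.09 (SE 0.10), Sema4c by 2.26 (SE 0.08) and Sema6a by 2.69 (SE 0.14). Sema4b was the exception among Sema4 genes, with a log2 fold change of -1.03 (SE 0.18).

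Plexins, the semaphorin receptors, were led by 1 gene. Plxnd1, the plexin known from developing vessels, stood at 1404 and 1351 CPM in EC and at 125.3, 143.2 and 119.5 CPM in CM. The EC libraries were far above all CM libraries (log2 fold change 3.41, SE 0.09, edgeR adjusted p = 1.39e-10). Per length it had the highest level of any member in EC, at 203 ± 5.71 CPM per kb (SD, n = 2) beside 18.5 ± 1.84 in CM (SD, n = 3). Plxnc1 was higher in EC by 1.98 (SE 0.12). Plxna2 stood at 35.6 and 41.3 CPM in EC and at 61.7, 63.5 and 69.3 CPM in CM, and was lower by -0.76 on the log2 scale (SE 0.09). Plxnb2, the plexin with the highest level per length in CM, stood at 152.8 and 141.5 CPM in EC and at 163.4, 171.4 and 190.9 CPM in CM. Its libraries did not overlap, but the difference was small (log2 fold change -0.25, SE 0.08, edgeR adjusted p = 0.018) and the call ended without EC replicate 2 (adjusted p = 0.116). The call of Plxna4 (log2 fold change -0.29, edgeR adjusted p = 0.0082) likewise ended without EC replicate 1 (adjusted p = 0.0607).

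Of the neuropilins, co-receptors for class 3 semaphorins and VEGF, Nrp1 was abundant in both lineages. Nrp1 stood at 629.8 and 649.3 CPM in EC and at 465.9, 455.6 and 444.4 CPM in CM. EC libraries were above CM libraries by a small but even margin (log2 fold change 0.49, SE 0.07, edgeR adjusted p = 4.90e-05). Per length Nrp1 was second to Plxnd1 in EC, at 110 ± 2.27 CPM per kb (SD, n = 2), and had the highest level of all members in CM, at 75.9 ± 2.33 (SD, n = 3). Nrp2 stood at 66.7 and 69.1 CPM in EC and at 30.8, 33.0 and 32.5 CPM in CM, also without overlap (log2 fold change 1.08, SE 0.08).

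All 4 tested ephrin-A ligands, which are anchored to the membrane by a lipid, were higher in EC. Efna1 stood at 53.38 and 52.02 CPM in EC and at 8.39, 10.1 and 10.1 CPM in CM, with no overlap (log2 fold change 2.47, SE 0.11, edgeR adjusted p = 4.92e-09). The 2 transmembrane ephrin-B members split, with Efnb2 left out by the rule. Efnb1 stood at 29.3 and 33.9 CPM in EC and at 20.2, 22.8 and 22.4 CPM in CM (log2 fold change 0.54, SE 0.10). Efnb3 stood at 6.77 and 5.57 CPM in EC and at 47.5, 52.4 and 57.3 CPM in CM (log2 fold change -3.08, SE 0.13, edgeR adjusted p = 4.52e-09). The libraries of both genes lay apart, in opposite order.

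Eph receptor tyrosine kinases among the members showed smaller differences. Of 6 tested EphA genes, 4 were higher in EC and 1 lower, with log2 fold changes from -0.83 to 1.55. Epha2, a receptor of Efna1, stood at 49.5 and 43.1 CPM in EC and at 17.2, 18.2 and 12.01 CPM in CM (log2 fold change 1.55, SE 0.16). Epha7, the EphA gene with the highest level per length in EC, stood at 166.2 and 161.4 CPM in EC and at 73.8, 78.5 and 67.0 CPM in CM (1.16, SE 0.08). Epha4, which binds both ephrin classes, was the exception, at 44.2 and 42.2 CPM in EC and 84.7, 78.5 and 67.0 CPM in CM (-0.83, SE 0.10). None of these 3 genes had overlapping groups.

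The 4 EphB members, which do not include Ephb4, were low in both lineages. Ephb3 had the highest level per length of these. It stood at 14.8 and 11.8 CPM in EC and at 13.0, 14.5 and 12.01 CPM in CM. Its groups overlapped and it was not called (log2 fold change 0.02, SE 0.14, edgeR adjusted p = 0.915), and the sign turned under 4 of the other settings. Ephb6, a receptor without kinase activity, stood at 5.14 and 4.21 CPM in EC and at 2.27, 2.31 and 2.24 CPM in CM (1.04, SE 0.20).

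**Figure D2:**
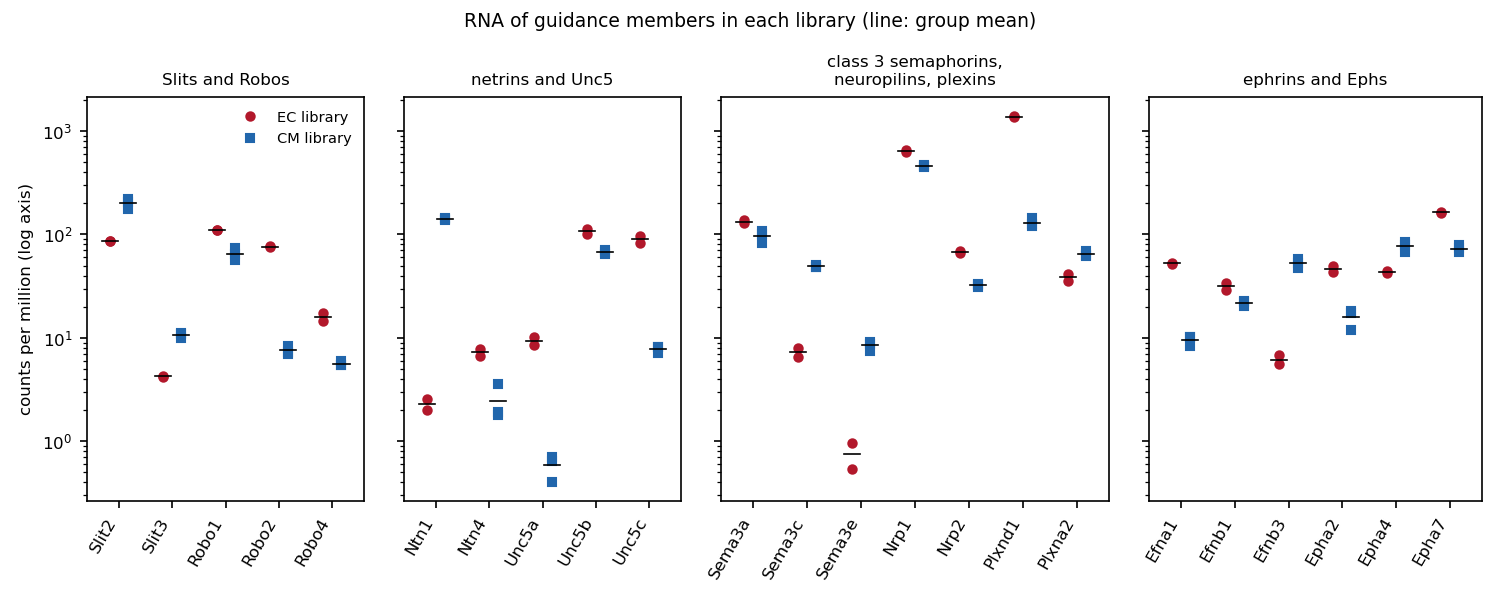
CPM on a log axis for 23 members in each EC (circle) and CM (square) library, with a line at each group mean. Slit2 and Ntn1 are higher in CM (at 142.4 CPM against 2.55 for Ntn1 in the first replicates), whereas Robo2, Unc5c and Plxnd1 are higher in EC.

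The levels of EC-high members in CM were set beside those of the endothelial markers. Over the 38 members higher in EC, the CM level was 34.8% of the EC level at the median, above the 15.9% of the endothelial markers. For 8 of them the CM share was at or under that marker median: Sema4d, Sema6a, Sema6b, Plxna4os1, Plxnd1, Robo2, Unc5a and Unc5c. For 10 it was above the highest endothelial marker. Over the 15 members lower in EC, the EC level was 21.4% of the CM level at the median and up to 84.0%, far above the 0.989% of the cardiomyocyte markers.

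Of 51 other genes of guidance signalling, 49 were tested; 27 were higher in EC, 14 lower and 8 not called, with a median log2 fold change of 0.50. Of all genes tested, 37.5% were higher and 40.2% lower. The smallest adjusted p-values among higher genes belonged to Srgap1 (2.89, SE 0.11) and Srgap2 (1.72, SE 0.08), which act below Robos, to the collapsin response mediator Crmp1 (4.28, SE 0.16), and to Adam10 (2.24, SE 0.09), a protease that cuts ephrins. Among lower genes they belonged to Met (-2.49, SE 0.14), Mical3 (-1.68, SE 0.10), the Unc5 ligand Flrt2 (-1.43, SE 0.10) and the netrin receptor Dcc (-6.49, SE 0.45). Dcc had 0 and 6 counts in the EC libraries and a mean of 11.1 ± 1.13 CPM in CM (SD, n = 3), so its partner netrin Ntn1 and Dcc itself were both lower in EC. Neo1, the other netrin receptor outside the Unc5 family and named after its value was seen, was not called (log2 fold change -0.02, SE 0.07, edgeR adjusted p = 0.776).

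GATA4 regions lay at most members. Regions were peaks of the 6 GATA4 libraries merged where they shared at least 1 base, and belonged to each gene whose body or 50 kb flank they touched. Tie2-Cre-selective regions had peaks in 2 or 3 Tie2-Cre libraries and in 0 of 3 Tnnt2-Cre libraries, Tnnt2-Cre-selective regions the reverse, and shared regions had peaks in 2 or 3 libraries of each group. At least 1 such region was found at 62 of 69 members (89.9%, beside 67.7% of 24140 placed genes). Members had a median gene span of 40.2 kb and all placed genes one of 14.4 kb and these shares were not adjusted for span. Across the 69 members, gene span and region number had a Spearman rho of 0.38, given as a description. The 7 members without a region were Sema3e, Sema4g, Robo3, Robo4, Plxnb3, Epha8 and Ephb6.

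By class, 63 Tie2-Cre-selective regions lay at 35 members (50.7%, beside 28.2% of all genes), 87 Tnnt2-Cre-selective regions at 44 members (63.8%, beside 39.2%) and 70 shared regions at 41 members (59.4%, beside 41.3%). These were 1.03%, 0.958% and 1.07% of all regions of their class, so members held near-equal shares of the 3 classes. In single libraries, 0.945% to 1.06% of GATA4 peaks lay at members. The class counts rest on few libraries, because replicate 2 of both groups had short peak lists (2734 and 3603 peaks, beside 17682 to 30447 in the other 4). Without Tie2-Cre replicate 1, or without replicate 3, 7 Tie2-Cre-selective and 18 shared regions were left. Without Tnnt2-Cre replicate 1, or without replicate 3, 11 Tnnt2-Cre-selective and 24 shared regions were left. With 3 libraries against 3, an exact two-sided test of a single region cannot give a p below 0.1.

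Counts of the selective classes differed between families, and single genes made up much of several counts. Neuropilins had 7 regions of the Tie2-Cre-selective class and 3 of the Tnnt2-Cre-selective class. Of these Nrp1 had 6 and 0, and Nrp2 1 and 3. The Unc5 symbols had 9 and 4, including Unc50 with 1 and 2 and Unc5cl with 2 and 1. Slits had 4 and 10, of which Slit3 had 3 and 8. Ephrin-A genes had 1 and 7, of which Efna5 had 0 and 5. Netrins had 2 and 5, plexins 7 and 12, EphA genes 5 and 9, EphB genes 2 and 4, Robos 5 and 4, and ephrin-B genes 0 and 2. The 20 semaphorins had 21 and 27, and all members 63 and 87. These are counts of regions that share genes and libraries, and no test was made of the difference between families.

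**Figure D3:**
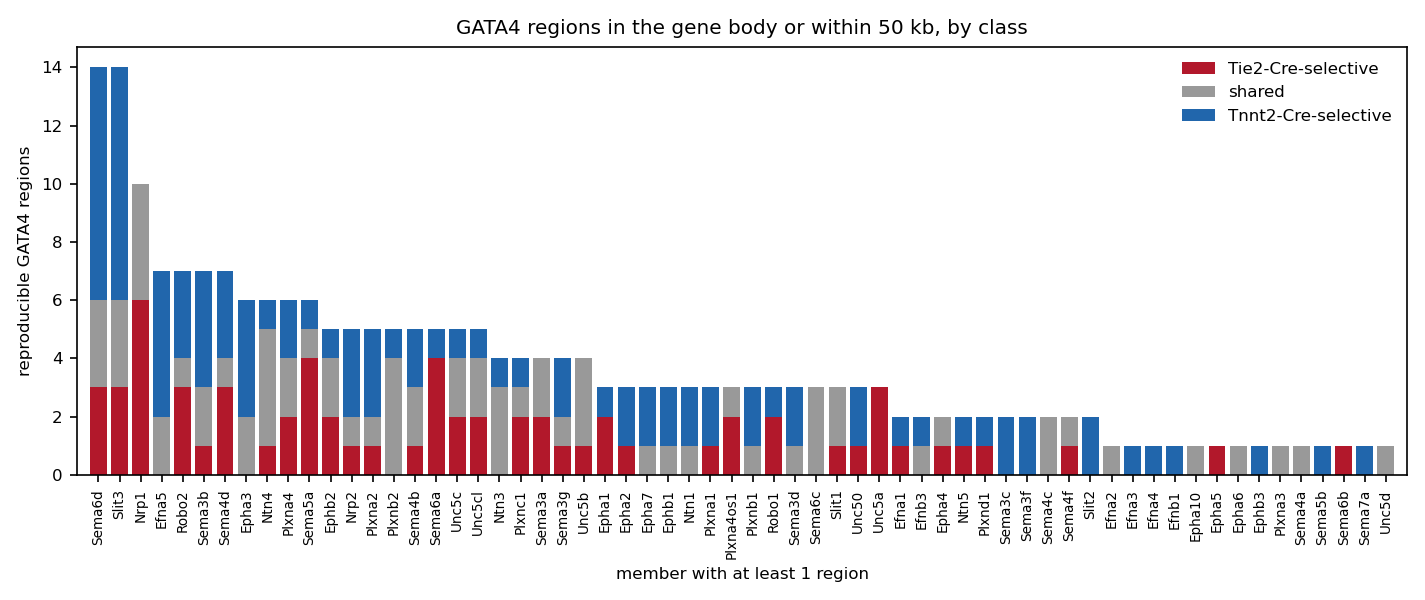
Number of reproducible GATA4 regions in the gene body or within 50 kb of the 62 members with at least 1, stacked by class. Sema6d and Slit3 lead with 14 each, most of them Tnnt2-Cre-selective, and Nrp1 follows with 10, none of them Tnnt2-Cre-selective.

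Single members differed in class. Sema6d and Slit3, with gene bodies of 577821 and 587052 bp, each had 14 regions: 3 Tie2-Cre-selective, 8 Tnnt2-Cre-selective and 3 shared. Nrp1 had 10 regions in its gene body of 146403 bp and the 50 kb flanks. Of these 6 were Tie2-Cre-selective, 4 shared and 0 Tnnt2-Cre-selective. Of the 6, 1 had a peak in all 3 Tie2-Cre libraries and is named for that, in an intron at chr8:128450411-128451380 (mm10), 91338 bp from the start. Unc5a had 3 regions, all Tie2-Cre-selective. Robo2 had 7, of which 3 were Tie2-Cre-selective and 3 Tnnt2-Cre-selective. Plxnd1, the member with the highest EC level per length, had 1 of each selective class and none shared. Ntn1 had 2 Tnnt2-Cre-selective regions and 1 shared, and Slit2 had 2 Tnnt2-Cre-selective regions and no other.

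**Figure D4:**
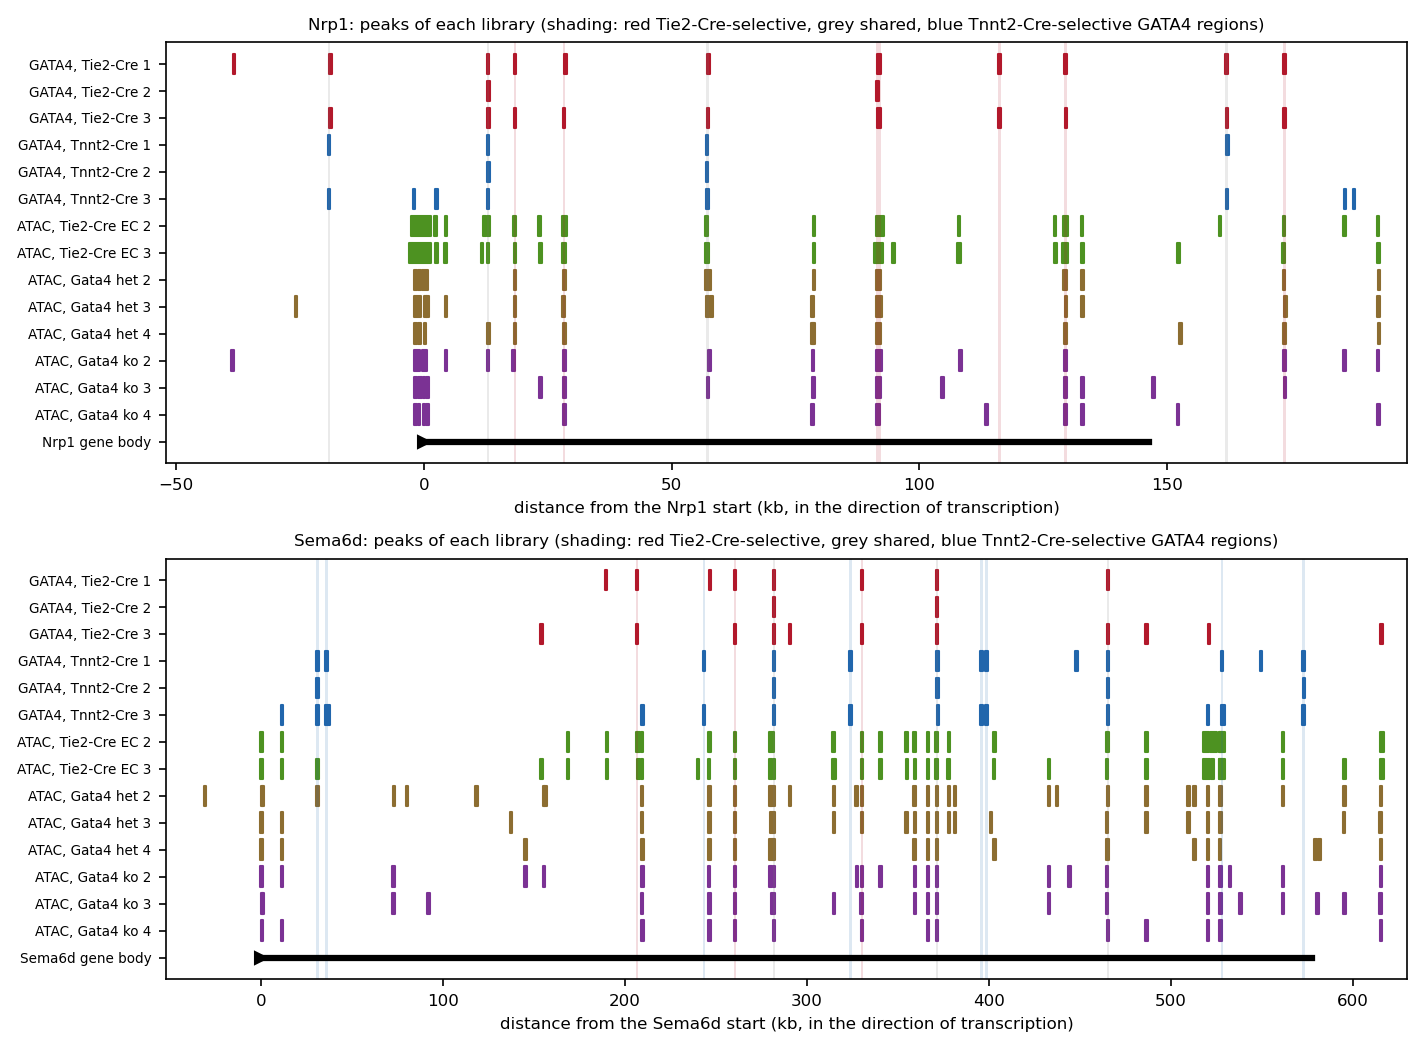
Peaks of each GATA4 and ATAC library within 50 kb of Nrp1 (top) and Sema6d (bottom), by distance from the gene start in kb; shading marks the reproducible GATA4 regions by class, and narrow peaks are drawn at a minimum width. At Nrp1 the Tie2-Cre libraries have 11, 2 and 10 peaks and the Tnnt2-Cre libraries 4, 2 and 8; at Sema6d they have 8, 2 and 11, and 13, 5 and 16.

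Within each list of peaks, the authors' peak fold ranked the regions. Ranks were divided by list length and averaged over the libraries of the class with a peak, and libraries without one were left out. Regions in 2 and in 3 libraries are thus not ranked on like terms. The first Tie2-Cre-selective region with peaks in 3 libraries, in an intron of Plxnc1, came at place 9. The Tie2-Cre-selective regions with the best mean rank were an intronic region of Unc5a (chr13:54988302-54988780, 38870 bp from the start), one in an intron of Sema6d (chr2:124349838-124350139), one downstream of Nrp1 (chr8:128532517-128532924) and one upstream of Nrp2 (chr1:62664864-62665457). Each had peaks in 2 of 3 Tie2-Cre libraries and was open in EC. The leading Tnnt2-Cre-selective regions were an exonic one near the 3′ end of Sema6d (chr2:124662359-124662861), an intronic one of Ephb1 (chr9:102262150-102262709) and one upstream of Sema3b inside Gnai2 (chr9:107619199-107619818), each in 3 of 3 libraries, and a further intronic region of Sema6d (chr2:124125525-124125858) in 2 of 3. Of these 4, only the one near Sema3b was open in EC. The leading shared regions lay in an intron of Epha6 (chr16:60274003-60274767) and an intron of Ntn4 (chr10:93647728-93648742), each in 6 of 6 libraries, and over an exon of Ntn4 (chr10:93707219-93707822). Epha6 RNA stood at 0 CPM in both EC libraries and at most 0.0416 CPM in CM.

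Most regions lay inside genes or far from starts. Of the Tie2-Cre-selective regions 40 were intronic and 4 exonic, of the Tnnt2-Cre-selective 46 and 5, and of the shared 29 and 7, where a region over an exon of any member counts as exonic. The median distance to the nearest member's start was 53.9 kb, 69.3 kb and 39.2 kb in that order. Only 8 members had a reproducible region within 1 kb of the start (11.6%, beside 12.7% of all genes). These were shared at Epha3, Epha4, Ephb2, Unc5b and Unc5c, and Tnnt2-Cre-selective at Sema3c, Sema4b and Efna4. At Sema4d a Tie2-Cre-selective region lay near an alternative RefSeq start.

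Promoter sequences are shown for 4 of the 7 members whose RefSeq window overlapped a reproducible GATA4 region. They cover each region class, with the shared class at both Epha3 and Unc5b. Windows ran from 250 bases before to 50 after a start (300 bases, GRCm38.p6). The region was shared in 6 of 6 libraries at Epha3 (window chr16:63864126-63864425, minus strand) and in 4 of 6 at Unc5b (chr10:60831532-60831831, minus). It was Tie2-Cre-selective in 2 of 3 at Sema4d (chr13:51756634-51756933, minus) and Tnnt2-Cre-selective in 3 of 3 at Sema4b (chr7:80186620-80186919, plus). The sequences are written in the direction of the gene, and capitals mark GATA words.
Epha3: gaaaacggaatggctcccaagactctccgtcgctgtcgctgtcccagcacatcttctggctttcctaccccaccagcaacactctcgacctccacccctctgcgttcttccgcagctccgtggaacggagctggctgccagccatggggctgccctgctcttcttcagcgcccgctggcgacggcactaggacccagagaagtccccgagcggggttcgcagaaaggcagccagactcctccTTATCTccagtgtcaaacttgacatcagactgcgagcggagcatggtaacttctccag
Unc5b: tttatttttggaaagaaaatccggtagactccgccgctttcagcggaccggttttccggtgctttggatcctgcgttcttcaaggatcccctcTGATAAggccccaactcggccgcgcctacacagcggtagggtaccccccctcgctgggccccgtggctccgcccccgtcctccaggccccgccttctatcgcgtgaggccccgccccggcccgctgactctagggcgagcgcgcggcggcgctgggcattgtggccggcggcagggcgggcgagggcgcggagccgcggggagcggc
Sema4d: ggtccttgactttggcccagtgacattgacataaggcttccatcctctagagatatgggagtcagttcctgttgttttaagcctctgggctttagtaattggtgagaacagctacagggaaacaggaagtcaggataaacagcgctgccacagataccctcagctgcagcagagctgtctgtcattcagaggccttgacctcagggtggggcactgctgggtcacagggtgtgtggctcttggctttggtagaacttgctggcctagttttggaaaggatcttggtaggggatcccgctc
Sema4b: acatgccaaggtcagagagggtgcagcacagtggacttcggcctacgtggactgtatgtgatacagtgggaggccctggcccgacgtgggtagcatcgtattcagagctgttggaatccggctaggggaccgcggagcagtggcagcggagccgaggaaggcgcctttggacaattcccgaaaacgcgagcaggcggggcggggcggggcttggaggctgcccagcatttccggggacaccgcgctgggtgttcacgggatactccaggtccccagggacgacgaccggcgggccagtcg

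GATA words were AGATAA as well as AGATAG, together with TGATAA as well as TGATAG, searched on both strands. They share the core GATA, and a stretch was counted once. Of the 4 windows, Epha3 held 1 word, on the opposite strand, and Unc5b held 1, and both words lay inside the GATA4 region. No word was found in the Sema4d and Sema4b windows. The GATA4 region covered 295 of the 300 bases at Epha3, 247 at Unc5b, 201 at Sema4d and only 76 at Sema4b. Bases of the regions outside the windows were not read. Windows were found for 59 of 69 members (75 windows), of which 10 windows (13.3%) held a word, beside 29.8% of all 32851 windows. Of 7 member windows that overlapped a reproducible GATA4 region, 3 held a word, at Epha3, Unc5b and Efna4. The word of Efna4 lay outside the region. A match is a description of letters only.

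Region classes were then set beside the RNA calls. Shared regions were left aside. Of 10 members with Tie2-Cre-selective as their only selective class, 6 were higher in EC and 1 lower (85.7% higher among those called, beside 62.3% over all genes of that class). Of 19 members with only the Tnnt2-Cre-selective class, 8 were higher and 6 lower (57.1%, beside 41.5%). Of 25 with both classes 17 were higher and 6 lower (73.9%, beside 52.4%), and of 15 with neither 7 were higher and 2 lower (77.8%, beside 45.6%). These shares rest on 7 to 23 called members in each class, and no difference between them was tested. Over the 60 tested members, the log2 fold change and the number of Tie2-Cre-selective minus Tnnt2-Cre-selective regions had a Spearman rho of 0.32, given as a description over genes that share libraries.

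Examples went both ways. Unc5a, Unc5b, Sema6b, Sema3a, Nrp1 and Plxna4os1 had Tie2-Cre-selective but no Tnnt2-Cre-selective regions and were higher in EC, whereas Epha4 had the same classes and was lower. Ntn1, Efnb3, Sema3c, Sema3d, Slit2 and Plxnb2 had Tnnt2-Cre-selective but no Tie2-Cre-selective regions and were lower in EC. With the same classes, Efna4, Efna5, Efnb1, Epha3, Epha7, Sema3f, Sema5b and Ntn3 were higher. Sema3e, lower in EC by 3.46 on the log2 scale, and Robo4, higher by 1.5, had no reproducible region.

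Open chromatin of Tie2-Cre cells was found at every member. A region was called open with a peak in both libraries, and 1035 open regions lay at the 69 members (91.4% of all genes had at least 1). Each member had a median of 15 open regions, from 1 at Ephb6 to 32 at Slit3. Plxnd1 had 30 in its gene body of 40195 bp and the 50 kb flanks. An open region lay within 1 kb of the start at 64 members (92.8%, beside 66.2% of all genes). The 5 without were Sema3a, Sema4a, Plxnb3, Unc5cl and Epha8. The start was 1 per gene, the outermost exon end in the count table, and other starts were not used here. At Sema3a a shared GATA4 region that was open in EC lay over an exon, 2372 bp from that start. Promoters were open at 36 of 38 members higher in EC (94.7%, beside 93.6% of all such genes) and at 14 of 15 lower in EC (93.3%, beside 89.9%). At the 9 members not tested for RNA, 7 promoters were open (77.8%), beside 25.9% of all genes not tested. Ntn1, Efnb3 and Slit2 thus had open starts in EC, where their RNA was lower than in CM.

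GATA4 regions of the classes differed in how many were open in EC. Of the Tie2-Cre-selective regions at members 87.3% were open, of the shared 94.3% and of the Tnnt2-Cre-selective 46.0%. The same shares over all regions were 88.5%, 94.1% and 41.9%. Nrp1 had 5 of its 6 Tie2-Cre-selective regions open and Sema6d 1 of its 8 Tnnt2-Cre-selective regions.

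**Figure D5:**
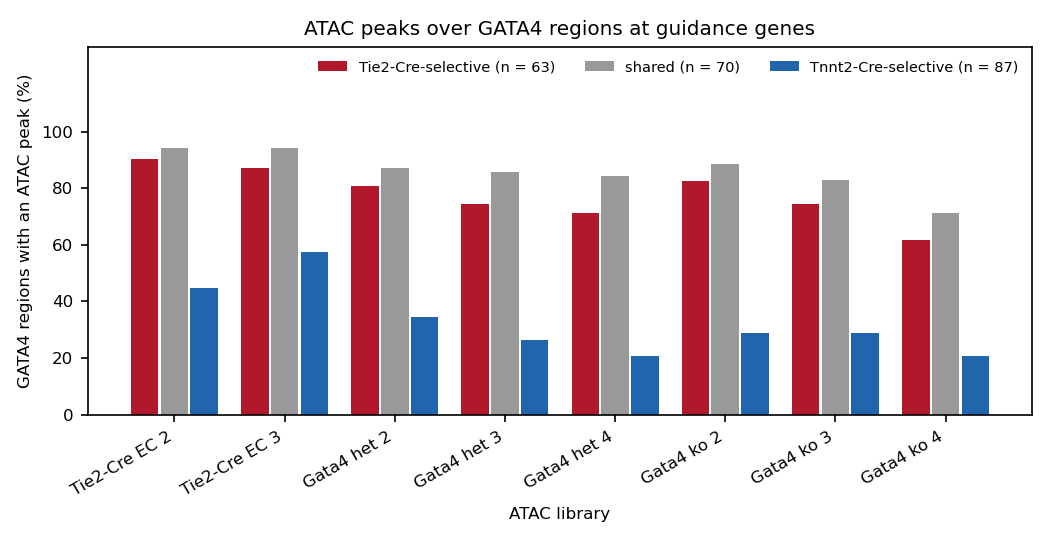
Percentage of GATA4 regions at members with a peak in each ATAC library, by region class (63 Tie2-Cre-selective, 70 shared, 87 Tnnt2-Cre-selective). Bars for the Tie2-Cre-selective class run from 71.4% to 81.0% in Gata4 het and from 61.9% to 82.5% in Gata4 ko libraries.

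Gata4 het and ko endothelial cells were compared by ATAC. Of the 63 Tie2-Cre-selective GATA4 regions at members, 51, 47 and 45 had a peak in the het libraries and 52, 47 and 39 in the ko libraries. Of the 70 shared regions, 61, 60 and 59 had one in het and 62, 58 and 50 in ko. The genotypes overlapped in both classes, and ko replicate 4 was lowest, with the shortest peak list (55733 peaks, beside 67201 to 90326 in the other 5).

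Het and ko open regions were then compared by peak calls. With at least 2 of 3 libraries of one genotype and 0 of 3 of the other, 34 het-selective regions lay at 25 members (36.2%, beside 24.5% of all genes) and 16 ko-selective regions at 17 members (24.6%, beside 14.6%). They were 0.871% and 0.727% of all regions of these classes. Of regions with peaks in at least 2 of 3 libraries of both genotypes, 1.00% lay at members. The shares of genes were not adjusted for gene span, which was longer in members. Single libraries moved these counts: the het-selective count was 4 without het replicate 2, 11 without het replicate 3, 79 without ko replicate 2 and 65 without ko replicate 3. The ko-selective count was 39 without het replicate 2, 3 without ko replicate 2 and 2 without ko replicate 3. A GATA4 region lay over 2 of the 34 het-selective regions (5.88%, beside 7.89% of all such regions) and over 1 of the 16 ko-selective (6.25%, beside 6.14%). Sema6d had the most het-selective regions, 5, each in 2 of 3 het libraries and none over a GATA4 region. At the region 314173 bp from its start, the peak of het replicate 2 ended at 314.4 kb. Beside it, ko replicate 3 had a peak from 314.403 to 314.602 kb.

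Regions with peaks in 3 of 3 libraries of one genotype and 0 of 3 of the other numbered 4 for het and 1 for ko. The het regions lay in introns of Nrp1, Ephb1 and Epha10 and at the start of Epha6, and the ko region upstream of Unc5a (chr13:54925536-54925870). The Nrp1 region (chr8:128377245-128377520, 18172 bp from the start) lay over a Tie2-Cre-selective GATA4 region. However, ko replicate 2 had a peak 0.132 kb from it, whereas the nearest peaks of ko replicates 3 and 4 were 4.82 and 9.63 kb away. At Epha6 every ko library had a peak within 0.434 kb of the het region, ko replicate 3 had one 0.459 kb from the Epha10 region, and het replicate 3 had one 0.079 kb from the Unc5a region. Of the 5, only the Ephb1 region (chr9:102310359-102310768) had no peak of the other genotype within 1 kb; the nearest ko peaks were 2.92 to 3.08 kb away. At Robo1 a het-selective region in 2 of 3 libraries (chr16:72721628-72721999) also lay over a Tie2-Cre-selective GATA4 region. Peak calls do not measure the height of a site, and changes in height between genotypes were not tested.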

How the data were processed

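RNA-seq (EC and CM), GATA4 bioChIP-seq and ATAC-seq were analysed from deposited files, without the cardiomyocyte ATAC group (not used here). The deposited RNA values are counts per gene, made by featureCounts 1.6.3 with forward-stranded counting on mm10, per the file headers. Peaks were deposited as 1 MACS2 list per library, with mitochondrial reads and duplicates removed from the ATAC libraries, per the peak names; the sources used here name no control library. Each peak carries a fold ratio over background and −log10 p and q values, as deposited by the authors; these only ranked or filtered peaks within a list. The submitters' processing notes name MACS2 2.2.4, STAR 2.7.3a, Bowtie2 2.2.9, deepTools 3.3.1 and Bowtie 1.1.1. A separate EC count table was not used.

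Counts were fitted over the whole table by edgeR 4.0.16 under R 4.3.3: filterByExpr, then TMM scaling, then the quasi-likelihood test, with Benjamini-Hochberg adjustment over all genes at 0.05. The SE is the log2 fold change over the root of F. CPM used TMM-scaled library totals; CPM per kb used plain totals and the deposited exon length. DESeq2 1.42.0, limma 3.58.1, Python 3.11.15 and pandas 2.3.3 were also used. Nothing in the labels says that replicates came from separate embryos or cultures, so p-values measure the spread between these samples, which may be technical. No replicates were duplicates of each other: chi-square over its degrees of freedom was 7.84 for EC and 13.4 to 33.9 for CM. Scripts were tested on simulated data.

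Gene bodies came from the exons in the count table (24140 genes placed), and promoter windows from RefSeq, GRCm38.p6, the assembly of mm10; 10 members had no window there. Values were printed, for each family, for the members highest per length in EC and in CM and with the greatest called changes up and down (at least 1 CPM in the higher group); for regions, the best mean ranks and those within 1 kb of a start. The members and gene lists were chosen with earlier results of these data known. Alternatives covered scaling, low-count filter, tool, a 2-fold test, the replicate number as a block, peak threshold, overlap, distance and leaving out each replicate.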

Additional observations from a re-analysis of the deposited data

How the results depend on the processing

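Over 11 other settings, the 60 tested members gave 660 log2 fold changes. Of these, 620 kept direction and side of the threshold, 28 lost the call, 8 gained one and 4 changed sign. All 4 belonged to Ephb3, which was not called: -0.02 without the low-count filter, -0.05 with the replicate block, -0.17 without EC replicate 1 and -0.04 without CM replicate 3, in a range up to 0.15 over the libraries left out. Of 53 called members, 32 kept their call in every setting and 50 in every setting but the test against 2-fold; the exceptions were Plxnb2, Plxna4 and Sema5b. The test against 2-fold called 22 members higher in EC. With the replicate number as a block, 38 members were higher and 14 lower. Deviations from the group mean had r = -0.02 and -0.01 between same-numbered samples. With 2 EC libraries these deviations mirror each other, so r cannot decide whether the numbers pair EC with CM. Leaving out 1 library gave 37 to 39 members higher and 14 to 16 lower; a lone EC library was taken to vary like the CM libraries.

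GATA4 region counts followed list length. With lists of equal length (2734 peaks) there were 13 Tie2-Cre-selective, 18 Tnnt2-Cre-selective and 10 shared regions, and with all 3 libraries required 7, 11 and 13. In gene bodies alone 51 Tnnt2-Cre-selective and 36 shared regions were found, and 39 shared where a peak had to cover 0.5 of its region. Leaving out 1 library gave 7 to 71, 11 to 112 and 18 to 70 regions. For het and ko, requiring 3 of 3 libraries left 4 and 1 selective regions, and leaving out 1 library gave 4 to 79 and 2 to 39. The ko-selective count was 25 with the cover rule, 9 in gene bodies and 25 within 100 kb. Open EC regions in gene bodies numbered 545. The cause of these shifts was not tested, beyond fewer peaks and a narrower window. Depth limits all peak counts, since a missing peak call is not absence.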

Other observations

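Plxna4 and its antisense transcript Plxna4os1 were called in opposite directions at a shared locus. The Plxna4 difference was small (log2 fold change -0.29, SE 0.08), and its call did not hold in every setting. Plxna4os1 rested on 34 and 34 counts in EC and on 2, 4 and 0 in CM. Plxna4os1 (mm10 chr6:32511141-32515576, plus strand) lies inside Plxna4 (chr6:32144557-32588192, minus strand), and the counting was forward-stranded, per the file headers. Plxna4os1 stood at 1.21 and 1.54 CPM in EC and at most 0.0941 CPM in CM, whereas Plxna4 stood at 60.3 and 64.1 CPM in EC and at 71.4, 75.1 and 81.9 CPM in CM. The 3 reproducible GATA4 regions in the window of Plxna4os1, 2 Tie2-Cre-selective and 1 shared, also lay in that of Plxna4, which held 6 in all: 2 Tie2-Cre-selective, 2 Tnnt2-Cre-selective and 2 shared. One of the selective regions (chr6:32514210-32514455) lay over an exon of Plxna4os1 and was open in EC.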
